A study of Mus musculus with 12 samples.

Results

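Interferon-inducible GTPases were followed in bone marrow macrophages of 2 mouse strains before and after IL-4 (interleukin-4). The 10 genes were Gbp2, Gbp2b, Gbp3, Gbp4 and Gbp6 of the guanylate-binding proteins (GBPs) and Igtp, Irgm1, Irgm2, Iigp1 and Tgtp1 of the immunity-related GTPases (IRGs). They were found by gene symbol or older name on the arrays. All 10 were on the array, with 13 of its 41174 probes, and 10 of 10 were among the 18423 genes tested. The transcript accession decided the name where it differed from the printed one. The probe printed as Gbp4 carries a Gbp3 accession, and the current Gbp4 and Gbp6 are printed as Mpa2 and Mpa2l. Gbp2b is printed as Gbp1, Irgm1 as Irgm, Irgm2 as Iigp2 and Tgtp1 as Tgtp. Tgtp1 has a near-identical neighbour, Tgtp2, and since the probe sequences were not used here, whether these probes tell their RNA apart was not tested.

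The macrophages were grown in culture with human CSF1 (200 ng/ml) from bone marrow of mice 8 to 12 weeks old, of the strains Balb/cAnNCrl and C57BL6/J, written Balb/c and C57BL6 here. Each strain gave 2 untreated cultures (mock, 18 h), 2 cultures with IL-4 (10 ng/ml) for 4 h and 2 with IL-4 for 18 h, so that the 12 arrays form 6 groups of 2. Marrow of 2 males and 1 female was combined for each culture, and the replicates are 2 experiments on different littermates. The p-values measure the spread between 2 such experiments, and the main fit did not pair cultures of the same replicate number. The 4 h cultures had no mock of their own duration, and all 6 groups received CSF1. The submitters' treatment text also describes LPS, but no label of these 12 samples names it.

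GBPs are large dynamin-like GTPases and IRGs a smaller related kind, and macrophages make both in quantity after interferon gamma. They gather on the vacuoles of Toxoplasma, Chlamydia and other intracellular microbes, where the vacuole membrane is broken and the contents reach inflammasomes. Among the mouse IRGs, Igtp (Irgm3), Irgm1 and Irgm2 sit on host membranes and regulate the effectors, while Iigp1 (Irga6) and Tgtp1 (Irgb6) load onto the vacuole. IL-4 drives macrophages toward the alternative state, marked in mice by Arg1, Retnla and Chil3.

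Promoters of 7 of the 10 genes were taken from RefSeq for GRCm38.p6, as 250 bases before and 50 after the transcript start. Gbp4 and Gbp6 had none listed there. Iigp1 was left out of the search, so whether it has a listed promoter or either motif was not tested. The 150 bases before the start are shown for 6 genes: Gbp2b and Gbp2, which are close neighbours but differ between the strains, Irgm1, with overlapping matches, and Igtp, Irgm2 and Tgtp1, which carry both motifs. Capitals mark matches to 2 motifs, each searched on both strands. The first is GAAA, any 2 bases, then GAAA again, the core of the interferon-stimulated response element (ISRE), and the second is TTCNNNGAA, the gamma-activated site (GAS). The lines run 5′ to 3′ on the gene's strand.
Gbp2b, chr3:142594697-142594846, + strand: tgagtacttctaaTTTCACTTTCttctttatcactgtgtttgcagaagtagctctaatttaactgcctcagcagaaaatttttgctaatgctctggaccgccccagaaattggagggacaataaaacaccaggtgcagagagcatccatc
Gbp2, chr3:142620513-142620662, + strand: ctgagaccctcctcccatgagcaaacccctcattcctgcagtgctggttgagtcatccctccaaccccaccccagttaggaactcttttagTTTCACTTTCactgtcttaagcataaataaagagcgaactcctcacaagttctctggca
Irgm1, chr11:48871421-48871570, - strand: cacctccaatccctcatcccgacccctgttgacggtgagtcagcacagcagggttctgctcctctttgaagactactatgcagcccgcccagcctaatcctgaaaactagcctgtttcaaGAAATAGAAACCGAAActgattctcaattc
Igtp, chr11:58199406-58199555, + strand: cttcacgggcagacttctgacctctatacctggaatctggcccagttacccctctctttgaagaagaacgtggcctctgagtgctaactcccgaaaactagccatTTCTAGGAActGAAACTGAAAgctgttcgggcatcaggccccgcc
Irgm2, chr11:58214827-58214976, + strand: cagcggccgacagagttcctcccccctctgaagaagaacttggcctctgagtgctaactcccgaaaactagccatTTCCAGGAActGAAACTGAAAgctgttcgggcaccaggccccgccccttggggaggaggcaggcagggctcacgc
Tgtp1, chr11:48992247-48992396, - strand: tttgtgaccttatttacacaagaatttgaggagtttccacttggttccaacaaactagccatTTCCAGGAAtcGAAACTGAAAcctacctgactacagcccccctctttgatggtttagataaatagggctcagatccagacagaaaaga
The ISRE core was present in the promoters of 7 of the 7 genes, in Gbp3 at only the first of its listed starts, against 3.44% of 32851 mouse promoters of 300 bases. The GAS motif matched in 3 of the 7, Igtp, Irgm2 and Tgtp1, against 8.30% of the same promoters. In each of these 3 genes it ended 2 bases before the ISRE core, and the motifs did not overlap. The matches in Gbp2b and Gbp2 have the same letters, TTTCACTTTC, at positions -137 and -59 from the start, and those of Irgm1 begin at -30 and -24 and overlap each other. Igtp and Irgm2 share a run of 38 identical bases, and Tgtp1 and Irgm2 share one of 20. These are letter matches in the reference strain, and binding was not measured.

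Across the 12 arrays 54.9% to 69.7% of spots were well above background, and replicates correlated at r = 0.974 to 0.989 over the genes tested. The number of arrays, 2 a group, limits the precision of every value. The known IL-4 genes answered: of Arg1, Retnla, Chil3, Mrc1 and Cish, 5 of 5 rose at 18 h in both strains (limma, Benjamini-Hochberg adjusted p below 0.05). All 6 macrophage markers (Csf1r, Adgre1, Cd68, Itgam, Cd14, Mertk) were well above background on all 12 arrays. Of 9 T and NK cell markers, Cd3d and Ncr1 were well above background on 0 of 12 arrays and Cd3e and Cd4 on 12. The arrays lay on 3 slides, and the slides did not hold the groups evenly.

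At 18 h of IL-4 the GTPase genes fell together in both strains. By the scanner files' annotation Gbp2, Gbp2b and Gbp3 lie on chromosome 3, Gbp4 and Gbp6 on chromosome 5, Igtp, Irgm1, Irgm2 and Tgtp1 on chromosome 11, and Iigp1 on chromosome 18, so the fall was not limited to a single cluster. Levels below are log2 of the processed signal minus the 75th percentile of the array, so a difference of 1 is a doubling and levels of different genes are not compared. In Balb/c macrophages 10 of 10 genes were called lower at 18 h than in mock, where 2.36% of all genes tested were. In C57BL6 macrophages 8 of 10 were called lower, against 2.59% of all genes tested. The exceptions in C57BL6 were Gbp2, whose adjusted p was 0.0524, and Gbp2b, which was not well above background there. The 18 h arrays lay below both mock arrays for 10 of 10 genes in Balb/c and for the 9 genes above background in C57BL6, as they did for 21.2% of all genes in Balb/c and 28.5% in C57BL6. The median log2 change of the genes was -2.58 in Balb/c and, over the 9 genes other than Gbp2b, -2.15 in C57BL6, beside medians of 0.02 and -0.04 over all genes tested. In bulk RNA, fewer cells making a transcript and less transcript in each cell cannot be told apart. The plot of levels by array shows all 12 values of each gene.

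**Figure D1:**
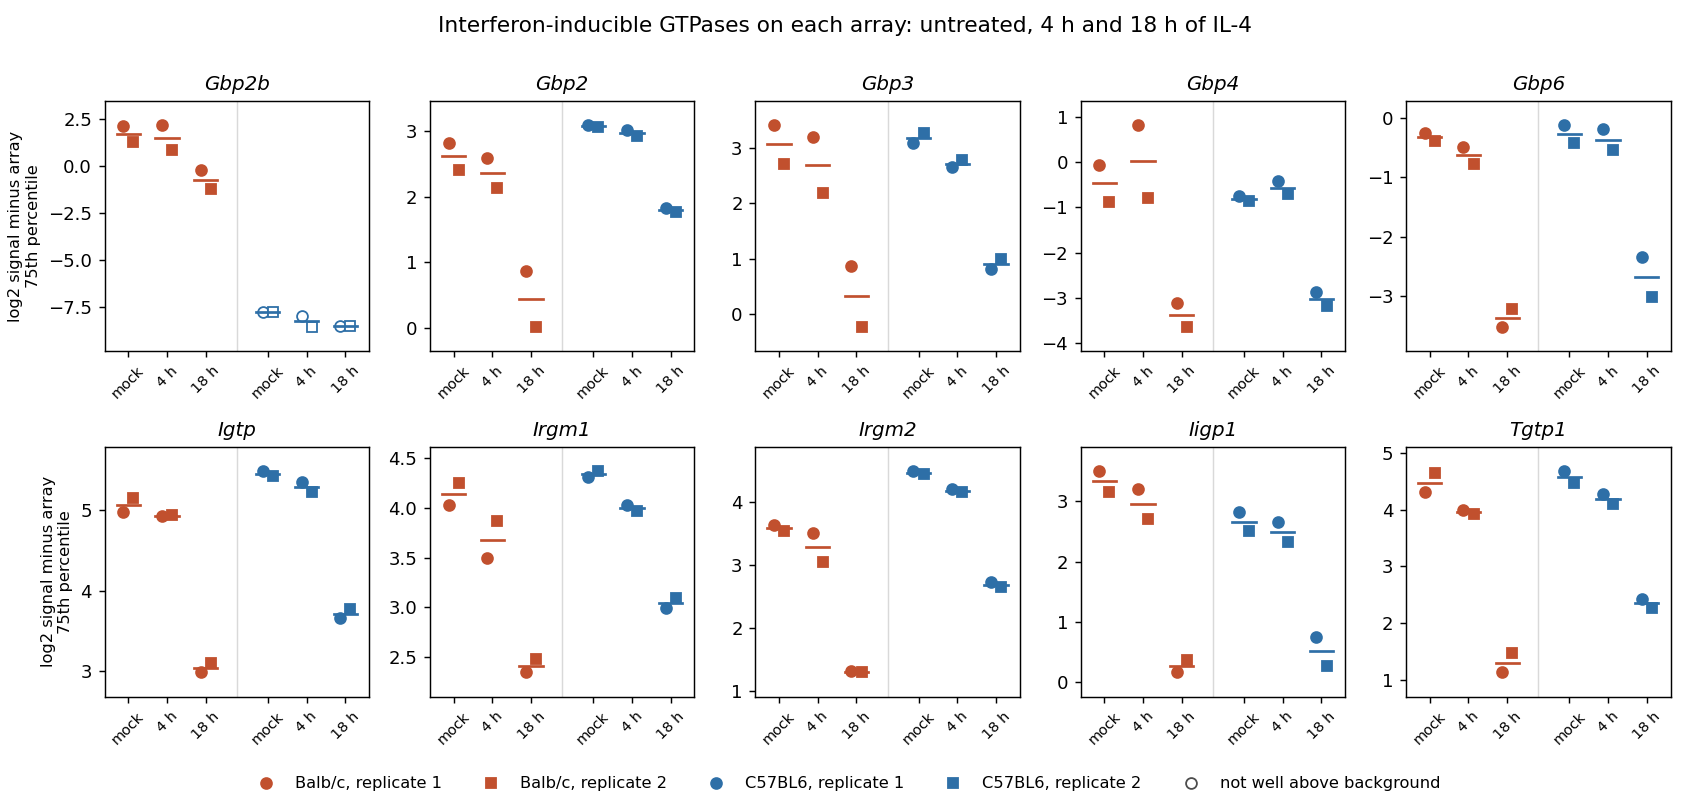
Log2 level (processed signal minus the array's 75th percentile, y axis, a separate scale for each gene) of the 10 GTPase genes on 12 arrays, by strain and condition (x axis: mock, 4 h and 18 h of IL-4). Circles are replicate 1, squares replicate 2, lines group means and open symbols probes not well above background. The 18 h points lie below all mock and 4 h points of the same strain for the 9 genes other than Gbp2b, and Gbp2b is open on all 6 C57BL6 arrays.

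Among the GBPs, Gbp2, which is recruited to Toxoplasma vacuoles, had log2 levels in Balb/c of 2.82 and 2.41 in mock, 2.59 and 2.13 at 4 h and 0.87 and 0.02 at 18 h. In C57BL6 the same gene had 3.09 and 3.06 in mock, 3.02 and 2.92 at 4 h and 1.82 and 1.77 at 18 h. The 18 h arrays were the lowest of each strain and did not overlap with mock. The 18 h change of Gbp2 was -2.17 ± 0.29 in Balb/c (SE, adjusted p = 0.00622) and -1.28 ± 0.29 in C57BL6 (adjusted p = 0.0524), or 4.50-fold and 2.42-fold lower. With the replicate number as a block, the C57BL6 change was called too (adjusted p = 0.00394).

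Gbp3, a chromosome 3 neighbour of Gbp2, had levels in Balb/c of 3.40 and 2.71 in mock, 3.19 and 2.19 at 4 h and 0.87 and -0.23 at 18 h. In C57BL6 it had 3.08 and 3.27 in mock, 2.65 and 2.77 at 4 h and 0.82 and 1.00 at 18 h. Its 18 h change was -2.74 ± 0.43 in Balb/c (adjusted p = 0.0125) and -2.27 ± 0.43 in C57BL6 (adjusted p = 0.0266). Gbp4 and Gbp6 belong to the chromosome 5 cluster. Gbp4 had -0.06 and -0.88 in mock, 0.81 and -0.79 at 4 h and -3.11 and -3.64 at 18 h in Balb/c. In C57BL6 Gbp4 had -0.76 and -0.85 in mock, -0.43 and -0.70 at 4 h and -2.86 and -3.18 at 18 h. Every 18 h array of Gbp4 was lower than every other array of its strain by more than the replicates differed. The change of Gbp4 at 18 h was -2.90 ± 0.49 in Balb/c (adjusted p = 0.0172) and -2.21 ± 0.49 in C57BL6 (adjusted p = 0.0484). The C57BL6 call of Gbp4 lay near the threshold. It was lost with quantile normalization (adjusted p = 0.0568), the deposited ratios (0.0524) and normexp without spots on bright background (0.0523). Without the filter on dim probes it was lost too (0.0899), as was that of Gbp3. Planned normexp correction ended the C57BL6 calls of Gbp3, Gbp4, Igtp, Iigp1, Irgm1, Irgm2 and Tgtp1. Gbp6 had -0.26 and -0.38 in mock, -0.49 and -0.77 at 4 h and -3.52 and -3.21 at 18 h in Balb/c, and in C57BL6 -0.12 and -0.43, -0.18 and -0.55, and -2.34 and -3.02 at the same times. With 8.27-fold (Balb/c, adjusted p = 0.00131) and 5.29-fold (C57BL6, adjusted p = 0.00293) lower signal at 18 h, Gbp6 had the largest fitted fall of the GBPs in both strains.

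All 3 regulatory IRGs fell in both strains. Igtp, the endoplasmic reticulum regulator also called Irgm3, had levels in Balb/c of 4.97 and 5.15 in mock, 4.93 and 4.94 at 4 h and 2.98 and 3.10 at 18 h. In C57BL6 it had 5.49 and 5.42 in mock, 5.35 and 5.23 at 4 h and 3.65 and 3.77 at 18 h. Its replicates were among the closest of the family, and its 18 h change was -2.02 ± 0.14 in Balb/c (adjusted p = 0.000614) and -1.75 ± 0.14 in C57BL6 (adjusted p = 0.000951). Irgm1, needed for resistance to mycobacteria in mice, had 4.02 and 4.25 in mock, 3.49 and 3.87 at 4 h and 2.35 and 2.48 at 18 h in Balb/c. In C57BL6 Irgm1 had 4.31 and 4.37 in mock, 4.02 and 3.97 at 4 h and 3.00 and 3.09 at 18 h. Its fall was the smallest of the IRGs at 18 h, -1.72 ± 0.17 in Balb/c (adjusted p = 0.00210) and -1.29 ± 0.17 in C57BL6 (adjusted p = 0.00598). Irgm2, a Golgi-associated regulator, had 3.64 and 3.55 in mock, 3.52 and 3.06 at 4 h and 1.32 and 1.30 at 18 h in Balb/c. In C57BL6 Irgm2 had 4.50 and 4.45 in mock, 4.21 and 4.17 at 4 h and 2.73 and 2.66 at 18 h. The 18 h change of Irgm2 was -2.28 ± 0.17 in Balb/c (adjusted p = 0.000879) and -1.78 ± 0.17 in C57BL6 (adjusted p = 0.00185).

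The effector IRGs Iigp1 and Tgtp1, which bind the pathogen vacuole in a GTP-dependent way, showed the 2 largest fitted falls of the family in Balb/c. That of Iigp1 lay close to that of Gbp6 (-3.06 ± 0.26 against -3.05 ± 0.26), and that of Tgtp1 is for its brighter probe. A second Tgtp1 probe changed by -2.83 in Balb/c as measured, but was not well above background there at 18 h. Iigp1 had levels in Balb/c of 3.51 and 3.15 in mock, 3.20 and 2.71 at 4 h and 0.16 and 0.37 at 18 h. In C57BL6 it had 2.82 and 2.51 in mock, 2.65 and 2.33 at 4 h and 0.76 and 0.27 at 18 h. Its signal at 18 h was 8.35-fold lower in Balb/c (log2 change -3.06 ± 0.26, adjusted p = 0.00130) and 4.45-fold lower in C57BL6 (-2.15 ± 0.26, adjusted p = 0.00424). Tgtp1, among the first IRGs to load onto Toxoplasma vacuoles, had 4.31 and 4.64 in mock, 4.00 and 3.92 at 4 h and 1.13 and 1.48 at 18 h in Balb/c. In C57BL6 Tgtp1 had 4.68 and 4.47 in mock, 4.27 and 4.10 at 4 h and 2.44 and 2.27 at 18 h. The 18 h signal of Tgtp1 was 8.99-fold lower in Balb/c (-3.17 ± 0.19, adjusted p = 0.000256) and 4.68-fold lower in C57BL6 (-2.23 ± 0.19, adjusted p = 0.00123). The groups did not overlap for either gene in either strain. Among the 3 regulatory IRGs the 18 h change ran from -2.28 to -1.72 in Balb/c and from -1.78 to -1.29 in C57BL6, and the fitted falls of Iigp1 and of the brighter Tgtp1 probe lay beyond it. In C57BL6 that order depended on the probe, since the second Tgtp1 probe changed by -1.24 there. The difference between the classes was not tested.

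**Figure D2:**
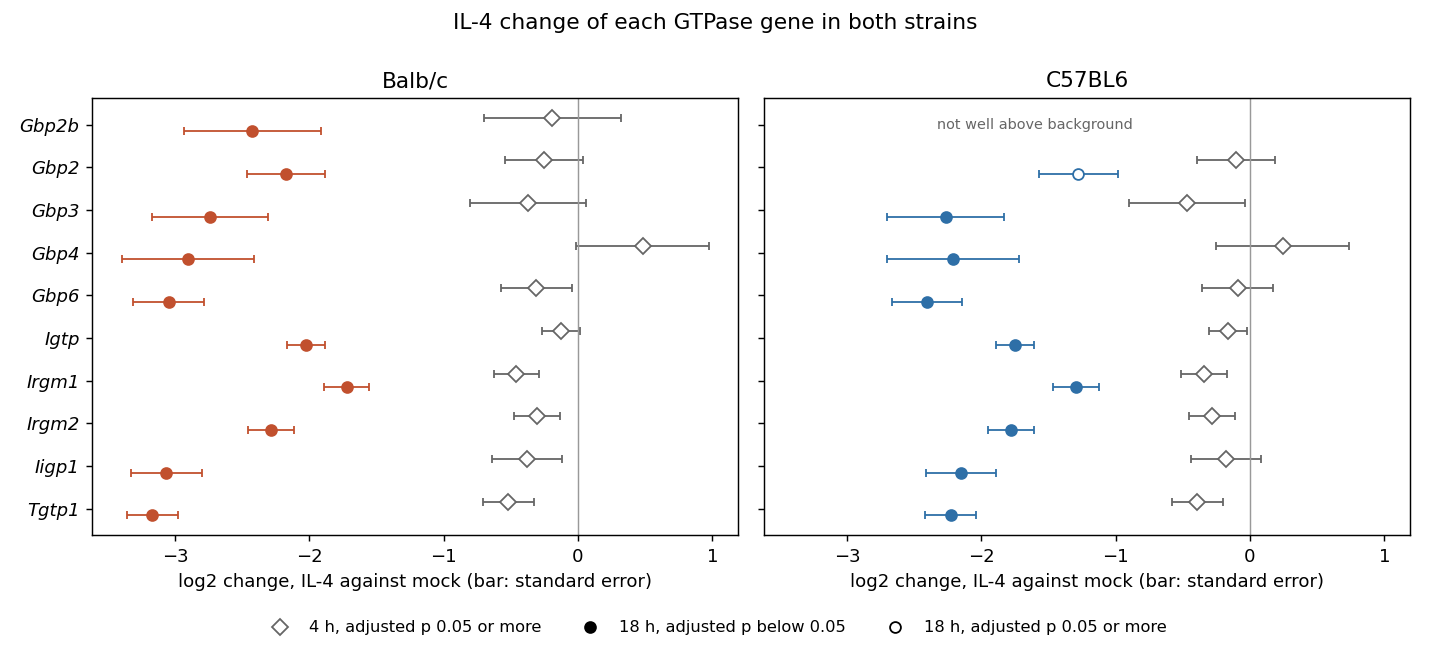
Log2 change of each GTPase gene (rows) after 4 h (diamonds) and 18 h (circles) of IL-4 against mock in Balb/c (left) and C57BL6 (right), with standard errors as bars and filled symbols where the adjusted p was below 0.05. Gbp2b is left out in C57BL6, where it was not well above background. All 18 h points shown lie at -1.28 or lower, and the 4 h points lie between -0.52 and 0.48.

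The calls at 18 h depended on single arrays for some GBPs. Without C57BL6 mock replicate 1, mock replicate 2 or 18 h replicate 2, the count in C57BL6 was 6, with Gbp3 and Gbp4 no longer called. Without C57BL6 18 h replicate 1 it was 5, with Irgm1 lost as well. In Balb/c the count was 7 without mock replicate 1 or 18 h replicate 2, with Gbp2b, Gbp3 and Gbp4 lost, 8 without 18 h replicate 1 and 9 without mock replicate 2. Every 18 h change of the genes above background kept its negative sign when any single array was left out. Within a slide, where 18 h and mock arrays can be set side by side, the median change of the genes was -2.23 on slide 1 in Balb/c, with 10 of 10 negative, and -2.0 on slide 3 in C57BL6 over the 9 genes other than Gbp2b, with 9 of 9 negative. Marker sums moved too. Each sum adds linear signals, so its brightest markers weigh most. Over the 12 arrays the macrophage marker Cd14 ranged from 2.44 to 7.00, while Adgre1 ranged from 7.06 to 7.43. Of the B cell markers Cd79b ranged from -0.51 to 1.54, and the others reached at most -1.89. The summed B cell marker level was -0.10 to 0.04 at 18 h and 0.05 to 0.71 in mock in Balb/c, and 0.02 to 0.64 at 18 h and 1.1 to 1.63 in mock in C57BL6. The macrophage sum was 8.29 to 8.51 at 18 h and 8.71 to 8.78 in mock in Balb/c, and 8.21 to 8.34 at 18 h and 8.37 to 8.54 in mock in C57BL6. The T and NK cell sum overlapped between the groups, at -2.10 to -1.82 at 18 h and -2.20 to -1.66 in mock in Balb/c, and at -1.83 to -1.38 at 18 h and -1.66 to -1.46 in mock in C57BL6. The stromal marker sum (Col1a1, Col3a1, Pdgfra) was -3.15 to -2.98 at 18 h and -3.40 to -3.29 in mock in Balb/c, and -3.76 to -3.58 at 18 h and -2.58 to -2.14 in mock in C57BL6, so it moved in opposite directions in the strains. The neutrophil sum (Mpo, Elane, Ngp, Camp) was -2.30 to -2.09 at 18 h and -1.87 to -1.29 in mock in Balb/c, without overlap, and -0.49 to 0.61 at 18 h and -0.06 to 0.79 in mock in C57BL6. The dendritic cell sum overlapped between the groups, at -2.03 to -1.91 at 18 h and -2.38 to -1.08 in mock in Balb/c, and at -3.55 to -2.74 at 18 h and -3.31 to -2.52 in mock in C57BL6. A change in cell content and a change of single markers within cells cannot be told apart in these sums. The part of these cells in the change of the GTPase genes was not tested.

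At 4 h of IL-4 no GTPase gene was called in either strain by limma, where 1.43% of all genes tested were called in Balb/c and 3.23% in C57BL6. At an unadjusted p below 0.05, 2 of the genes (Irgm1 and Tgtp1) passed in Balb/c and 0 in C57BL6, among 1864 and 2951 of all genes tested. The fitted 4 h changes ran from -0.52 to 0.48 in Balb/c and, without Gbp2b, from -0.47 to 0.24 in C57BL6. Their medians were -0.31 and -0.18, beside 0.02 and -0.03 over all genes tested. Gbp4 was the only gene with a positive fitted change, 0.48 ± 0.49 in Balb/c (adjusted p = 0.866) and 0.24 ± 0.49 in C57BL6 (adjusted p = 0.911). In Balb/c each 4 h array lay above the mock array of its own number, 0.81 against -0.06 and -0.79 against -0.88. Without 4 h replicate 1 the unpaired change was -0.32. Irgm1 and Tgtp1 had the lowest adjusted p of the main fit in both strains, 0.382 and 0.367 in Balb/c and 0.396 and 0.375 in C57BL6. With the replicate number as a block in limma, no gene was called at 4 h either, but the lowest adjusted p lay near the threshold. It was 0.0538 for Irgm1 in Balb/c and 0.0524 for Gbp3 in C57BL6. Over the same 4 h, IL-4 genes such as Cish had already risen, by 5.95 ± 0.85 in Balb/c and 6.40 ± 0.85 in C57BL6 on the log2 scale.

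Between 4 h and 18 h of IL-4 the signal of 8 genes was called lower in Balb/c and of 5 in C57BL6, where 0.657% and 0.668% of all genes tested were. The 5 genes in C57BL6 were Gbp6, Igtp, Iigp1, Irgm2 and Tgtp1. In Balb/c Gbp2, Gbp4 and Irgm1 were called as well. The largest fitted step was that of Gbp4 in Balb/c, -3.38 ± 0.49 (adjusted p = 0.0279), or 10.4-fold lower at 18 h than at 4 h. For Igtp, with its close replicates, the step was -1.89 ± 0.14 in Balb/c (adjusted p = 0.00545) and -1.58 ± 0.14 in C57BL6 (adjusted p = 0.00817). With the replicate number as a block, 10 genes were called in Balb/c and 9 in C57BL6, which were all genes above background there. Without any 1 of the 4 C57BL6 arrays the count was 0, and in Balb/c it was 7 without 4 h replicate 1, 6 without 4 h replicate 2, 0 without 18 h replicate 1 and 5 without 18 h replicate 2. The 4 h and 18 h comparisons with mock share the mock arrays, and the step between 4 h and 18 h uses none of them.

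Gbp2b separated the strains before any treatment. This GBP, the former Gbp1, is long known for inbred mouse strains that differ in making it after interferon. Its log2 levels in Balb/c were 2.14 and 1.26 in mock, 2.16 and 0.85 at 4 h and -0.20 and -1.25 at 18 h, all well above background. In C57BL6 it was not well above background on any of the 6 arrays, with measured values between -8.55 and -7.75. The lowest level counted as well above background on the C57BL6 arrays averaged -6.38 in mock, -6.43 at 4 h and -6.46 at 18 h. The Balb/c mean of Gbp2b lay 271-fold above that level in mock, 244-fold at 4 h and 53.2-fold at 18 h. These folds are not strict bounds, since a probe can lie above that level and still not count as well above background. A dim Irgm1 probe did so at -6.52 on C57BL6 mock replicate 2, where the lowest such level was -7.04. The limma test used the measured values, with differences of 9.46, 9.76 and 7.80 (adjusted p = 4.76e-05, 5.29e-05 and 0.000151). In mock 5.25% of all genes tested were called between the strains in either direction, at 4 h 4.08% and at 18 h 5.21%. The array has 1 probe for Gbp2b, and a sequence difference between the strains under that probe could not be told apart from a difference in transcript. Within Balb/c, Gbp2b fell with the rest of the family at 18 h, by -2.42 ± 0.51 (adjusted p = 0.0415), a call that leaving out any 1 of the 4 arrays ended (adjusted p = 0.0633 to 0.245). Its change in C57BL6 is not given, since all groups there were below background.

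The other called strain differences were small beside that of Gbp2b, and in each of them the signal was lower in Balb/c. Irgm2 was called lower in Balb/c than in C57BL6 in all 3 conditions. Its difference was -0.88 ± 0.17 in mock (adjusted p = 0.0248), -0.90 ± 0.17 at 4 h (adjusted p = 0.0253) and -1.38 ± 0.17 at 18 h (adjusted p = 0.00349). The Balb/c arrays of Irgm2 lay below the C57BL6 arrays of the same condition without overlap. In mock the call was lost without any 1 of the 4 arrays (adjusted p = 0.0874 to 0.120), and at 4 h it was lost without Balb/c replicate 2 or either C57BL6 replicate (adjusted p = 0.0789 to 0.166). At 18 h it remained without each of the 4 arrays. At 18 h Gbp2, Igtp and Tgtp1 were called lower in Balb/c too, so that 4 of 10 genes were lower, against 2.93% of all genes tested. The difference was -1.35 ± 0.29 for Gbp2 (adjusted p = 0.0377), -0.67 ± 0.14 for Igtp (adjusted p = 0.0347) and -1.04 ± 0.19 for Tgtp1 (adjusted p = 0.0193). Leaving out 1 array ended the calls of Igtp (any of the 4), Gbp2 (Balb/c replicate 2 or either C57BL6 replicate) and Tgtp1 (Balb/c replicate 1 or either C57BL6 replicate). Iigp1 was the only gene other than Gbp2b and Gbp4 with a higher mean in Balb/c mock cells, by 0.66 ± 0.26, and it was not called (adjusted p = 0.213).

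**Figure D3:**
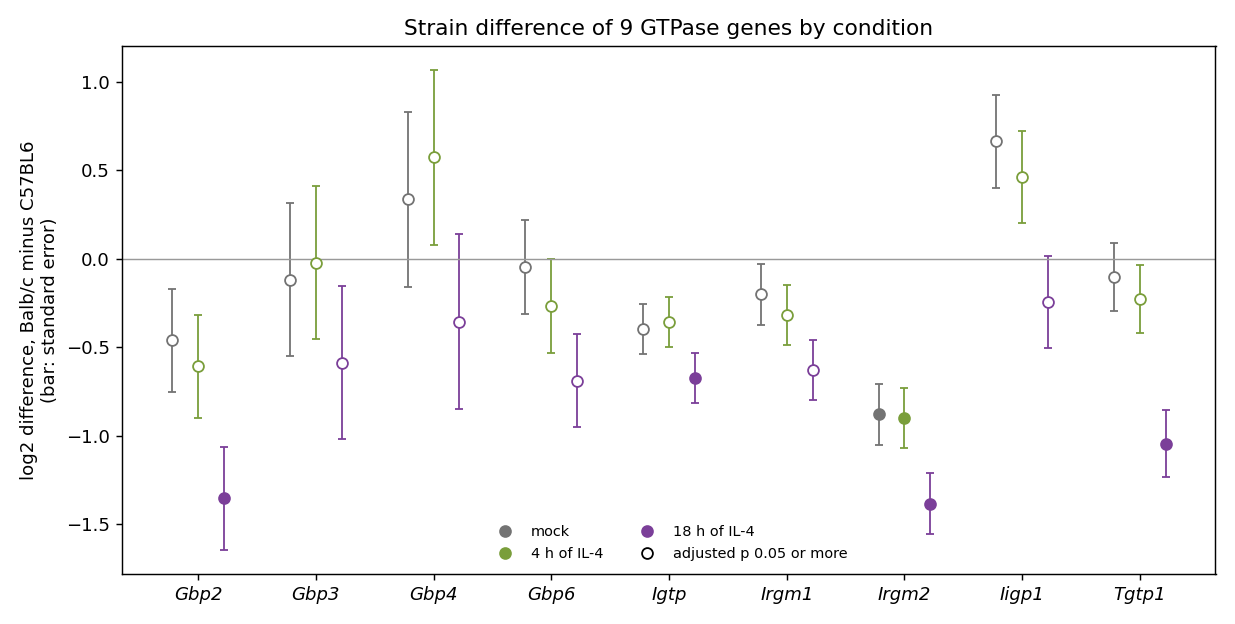
Log2 difference between Balb/c and C57BL6 (y axis, Balb/c minus C57BL6, bars are standard errors) for the 9 GTPase genes other than Gbp2b in mock, at 4 h and at 18 h of IL-4. Filled symbols have an adjusted p below 0.05; the 18 h point is the lowest of the 3 for every gene, from -1.38 for Irgm2 to -0.25 for Iigp1.

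No strain difference of the IL-4 change itself was called. The 18 h change was more negative in Balb/c for 9 of the 9 genes above background in both strains, by -0.28 (Igtp) to -0.94 (Tgtp1) on the log2 scale. With slide as a block this held for 8 of the 9, with Gbp3 at 0.13 and Gbp4 at -0.25. In limma 0 of 18423 genes were called for this difference at 18 h and 973 had an unadjusted p below 0.05. Those 973 included Iigp1 (-0.91 ± 0.37, adjusted p = 0.919), Tgtp1 (-0.94 ± 0.27, adjusted p = 0.806) and Gbp2b, whose C57BL6 side was below background. At 4 h 0 genes were called and 446 had an unadjusted p below 0.05, none of them in this family. Mock and 18 h arrays of the strains share no slide, so strain and slide cannot be told apart in the mock and 18 h comparisons without a model term. With slide as a block, Irgm2 in mock had an adjusted p of 0.0636, and at 18 h Gbp2b, Gbp2 and Irgm2 were still called while Igtp and Tgtp1 had 0.149 and 0.0991. At 4 h the strains share slide 2, where the difference was -1.15 for Irgm2 and 8.81 for Gbp2b as measured. Marker sums differed by strain as well. By the ranges given above, the neutrophil sum was lower and the dendritic cell sum higher in Balb/c in mock and at 18 h, without overlap. In mock the B cell and stromal sums were also lower in Balb/c and the macrophage sum higher, and at 18 h the stromal sum was higher, each without overlap. The T and NK cell sum was narrowly lower in Balb/c in mock (highest -1.664 against lowest -1.659 in C57BL6). At 4 h the neutrophil and B cell sums were lower and the macrophage and dendritic cell sums higher in Balb/c, without overlap. The part of these cells in the strain differences was not tested.

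Replicates of Gbp2, Gbp2b, Gbp3 and Gbp4 lay apart in Balb/c. Between replicate 1 and replicate 2 of Balb/c at 4 h, Gbp4 differed by 1.60, Gbp2b by 1.31 and Gbp3 by 1.00, beside a median absolute difference of 0.43 over all genes. In all 3 Balb/c groups replicate 1 was the higher for Gbp2, Gbp2b, Gbp3 and Gbp4. Gbp6 differed by 0.28 in the same 4 h pair, Igtp by -0.01, Tgtp1 by 0.08 and Iigp1 by 0.50. The C57BL6 replicates of Gbp2, Gbp3 and Gbp4 were closer in each group, with Gbp4 at 0.27 and Gbp3 at -0.12 at 4 h. For Gbp6, Igtp and Tgtp1 the C57BL6 pair at 4 h lay further apart than the Balb/c pair, at 0.36, 0.12 and 0.18. In Balb/c, replicates 1 and 2 lay on different slides at 4 h and 18 h and on the same slide in mock.

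Further probes gave the same direction. A second Irgm1 probe, well above background on all 12 arrays, changed by -1.70 ± 0.18 at 18 h in Balb/c (adjusted p = 0.00254, limma over all probes) and by -1.12 ± 0.18 in C57BL6 (adjusted p = 0.0144). A second Tgtp1 probe changed by -1.24 ± 0.24 in C57BL6 (adjusted p = 0.0294), less than the -2.23 of the brighter probe. In Balb/c it was not well above background on the 18 h arrays, where its signal as measured was 7.12-fold lower than in mock. A further Irgm1 probe was well above background on only 3 of 12 arrays and was not tested.

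Related genes and the interferon pathway were read from lists chosen with earlier results of these data known. Of 13 tested relatives of the family, 8 were called lower and 0 higher at 18 h in Balb/c, and 2 lower and 1 higher in C57BL6. Their median change was -1.80 in Balb/c and -1.02 in C57BL6. The IRG Ifi47 fell by 1.86 ± 0.23 in Balb/c and by 1.52 ± 0.23 in C57BL6 on the log2 scale (adjusted p = 0.00458 and 0.0110). The GBP Gbp9 fell by 1.84 ± 0.26 in Balb/c and by 1.43 ± 0.26 in C57BL6 (adjusted p = 0.00800 and 0.0231). The gene called higher in C57BL6 was Irgc1, a relative known from testis, which was well above background on 3 of 12 arrays, none of them mock. Gbp5, which promotes inflammasome assembly, fell in Balb/c (-2.45 ± 0.47, adjusted p = 0.0292) and had -1.92 ± 0.47 in C57BL6 without a call. At 4 h 0 of these 13 genes were called in either strain.

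Among 17 genes of interferon signalling and its transcription factors, 3 were called lower and 2 higher at 18 h in Balb/c, and 3 lower and 1 higher in C57BL6. The median changes over all 17 were -0.25 and -0.39. Stat2, a transcription factor of type I interferon signalling, changed by -1.15 ± 0.19 in Balb/c (adjusted p = 0.0158) and -1.17 ± 0.19 in C57BL6 (adjusted p = 0.0146). Irf7, which amplifies type I interferon, changed by -1.39 ± 0.23 in Balb/c (adjusted p = 0.0160) and -1.26 ± 0.23 in C57BL6 (adjusted p = 0.0235). Irf1, an interferon-induced transcription factor, was not called and had -0.29 ± 0.57 in Balb/c and -0.30 ± 0.57 in C57BL6. Socs1, an inhibitor of JAK kinases that both IL-4 and interferon induce, rose in both strains at both times. Its change in Balb/c was 4.61 ± 0.20 at 4 h and 3.66 ± 0.20 at 18 h, and in C57BL6 5.22 ± 0.20 at 4 h and 3.87 ± 0.20 at 18 h. Socs1 was high at 4 h, when no GTPase gene was called, and its part in the change of those genes was not tested.

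Other interferon targets fell with the family. Of 14 tested, 11 were called lower at 18 h in Balb/c and 10 in C57BL6, with median changes of -3.26 and -2.57, and 0 were called higher. Ifit3 and Ifit2, antiviral RNA-binding proteins or their partners, changed by -4.62 ± 0.29 and -4.20 ± 0.22 in Balb/c and by -3.65 ± 0.29 and -2.78 ± 0.22 in C57BL6. Cxcl10, a chemokine for T cells, changed by -5.38 ± 0.57 in Balb/c and by -4.83 ± 0.57 in C57BL6, and was already lower at 4 h in C57BL6 (-2.80 ± 0.57). Of Cxcl9 and Cxcl11, chemokines of the same receptor, neither was well above background on any Balb/c array at 18 h, and in C57BL6 at 18 h Cxcl9 was on 1 of 2 arrays and Cxcl11 on 0. The immunoproteasome genes Psmb8 and Psmb9 were not called, with -0.26 and -0.40 in Balb/c and 0.06 and -0.62 in C57BL6. Of the interferon genes, Ifng, Ifna2 and Ifna4 did not pass the filter on dim probes. Ifnb1 was well above background on 2 of 2 mock arrays and 0 of 2 arrays at 18 h in both strains, and it was not called. Of 16 genes of autophagy conjugation and vacuole loading, 2 were called lower at 18 h in each strain, Ube2l6 and Trim21, with medians of -0.22 in Balb/c and -0.03 in C57BL6. Trim21, an antibody receptor and ubiquitin ligase, changed by -1.31 ± 0.13 in both strains. Ube2l6, an ISG15 conjugating enzyme, changed by -1.51 ± 0.17 in Balb/c and by -1.39 ± 0.17 in C57BL6, and the conjugation genes Atg3, Atg5, Atg7, Atg12 and Atg16l1 were not called.

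**Figure D4:**
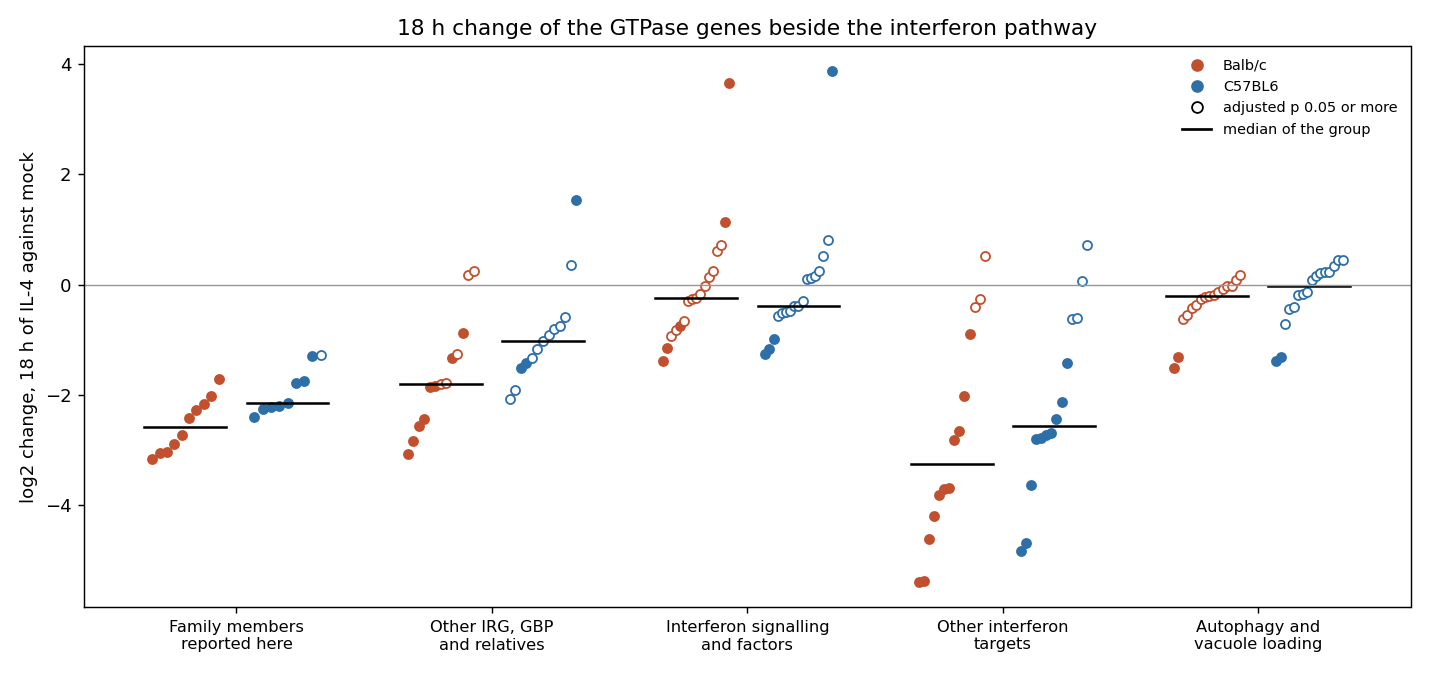
Log2 change at 18 h of IL-4 against mock (y axis) for each gene of the GTPase family and of 4 related lists, Balb/c left of C57BL6 in each pair, filled where the adjusted p was below 0.05, with lines at the medians. Gbp2b is left out in C57BL6. The family and the other interferon targets lie below 0 by their medians (-2.58 and -3.26 in Balb/c), while autophagy and loading genes lie near 0.

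Over the 12 arrays the 9 genes other than Gbp2b varied together, with pairwise Pearson r of 0.786 to 0.986 and a median of 0.927 over 36 pairs. The arrays share strains, times and replicate numbers, so these values describe the arrays. In a search of 14144 genes above background on all arrays, those with the profile most like the mean of the 9 were Trex1 (r = 0.983), Ifi47 (0.978), Zfas1 (0.978), Ifit2 (0.977), Parp14 (0.976) and Aif1 (0.973). At 18 h Trex1 changed by -1.45 in Balb/c and by -1.41 in C57BL6, and Aif1 by -1.40 in Balb/c and by -1.24 in C57BL6. With Gbp2b in the mean, the strain step of that gene weighed on the profile, and the most similar genes were Cd2bp2 (r = 0.970), Asb13, Zmiz2, Atg16l2, Rrad and Nectin4 (0.948).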

How the data were processed

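RNA of 12 cultures was hybridised with Cy3 alone to Agilent arrays. Per the file headers, the deposited scanner files give each spot's intensity on a linear scale, with background subtracted and trends removed by the scanner software. The submitters' processing notes name it as Agilent Feature Extraction 9.5.1.1. The deposited ratio table is, by its values, the scaled signal divided by the average of both C57BL6 mock arrays (median absolute deviation of the log2 difference at most 0.00143; column medians 0.936 to 1.132), and it served as an alternative. The aligner or build behind the probe annotation is not given in the sources used here.

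Control spots and spots marked as outliers were left out, spots of a probe were averaged as log2 values and the array's 75th percentile was subtracted. Of 41174 probes, 27371 were kept because both arrays of some group showed them well above background, and 17628 took their name from the RefSeq accession, 155 from a gene ID, 3977 from a current symbol, 1871 from an older symbol and 3740 from the scanner file. The kept probe with the highest mean stood for each of 18423 genes. limma 3.58.1 in R 4.3.3 fitted 6 group means with empirical Bayes moderation (6 residual and 2.04 prior degrees of freedom), and calls were made where p, adjusted by Benjamini-Hochberg over all genes, was below 0.05. The 11 comparisons were IL-4 against mock and 18 h against 4 h within strain, Balb/c against C57BL6 in each condition, and the strain difference of each IL-4 change. The fit was tested on simulated data.

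Same-numbered samples of a strain deviated together in 6 of 6 group pairs (r = 0.155 to 0.653), but not across strains (-0.31 to 0.14). The labels describe separate experiments, so the replicate number within strain was used as a block in an alternative. The highest r were those of Balb/c 4 h with 18 h (0.653) and C57BL6 mock with 4 h (0.622). In these pairs the replicates split over the same slides, so replicate and slide cannot be told apart there. The other pairs within a strain had 0.155 to 0.501. Other alternatives were quantile normalization, normexp, no filter on dim probes, slide as a block, every probe, the deposited ratios and leaving out each array. The genes named were all 10 members, up to 4 of each list with called ones first, and the 6 most similar in pattern. Genes and lists were chosen with earlier results of these data known; Mrc1, Psmb8, Psmb9, Irf1, Gbp5, Ifnb1 and the Atg genes were named after their values were seen. A gene of the signalling list is not reported here.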

Additional observations from a re-analysis of the deposited data

How the results depend on the processing

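Under the replicate block 9 genes were called between 18 h and 4 h in C57BL6 instead of 5, and the other within-strain counts stayed within 1.5 times of those reported. Strains lie between such blocks, so the block can understate the error of strain comparisons and its p-values for them are not used. Planned normexp background correction left 1 gene called at 18 h in C57BL6 and 6 in Balb/c. It left 0 between 18 h and 4 h in either strain and 0 in each strain comparison. Another normexp fit, chosen after seeing the data, left out spots on bright background. These were spots whose local background exceeded them by over 10 units, 0 to 16 an array. With it the counts at 18 h were 8 in C57BL6 and 10 in Balb/c. Why the planned correction gave fewer calls was not tested. Without the filter on dim probes 6 genes were called at 18 h in C57BL6, 5 between 18 h and 4 h in Balb/c, and 1, 1 and 2 between the strains in mock, at 4 h and at 18 h. With slide as a block the strain counts were 1 in mock and 3 at 18 h. Leaving out 1 array gave 5 to 6 calls at 18 h in C57BL6 and 7 to 9 in Balb/c, 0 between 18 h and 4 h in C57BL6 and 0 to 7 in Balb/c, and between the strains 1 in mock, 1 to 2 at 4 h and 2 to 3 at 18 h.

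Within strain the block ended no call of the 10 genes. No called change of the 10 genes turned its sign under these alternatives, but some uncalled values did, among them those that follow. Under normexp Gbp2, Igtp and Iigp1 in C57BL6 at 4 h came to 0.0296, 0.0109 and 0.0110. With slide as a block Gbp2, Gbp2b and Gbp3 in Balb/c came to 0.0750, 0.40 and 0.15 at 4 h, the strain difference of Gbp4 to -0.82 in mock and -0.05 at 4 h, that of Irgm1 in mock to 0.06, and the strain difference of the Gbp3 change at 18 h to 0.13. Leaving out 1 array gave 4 h changes of -0.27 to 0.0917 for Gbp6 in C57BL6, and in Balb/c -0.85 to 0.46 for Gbp2b, -0.87 to 0.13 for Gbp3 and -0.32 to 1.28 for Gbp4. The cause was not tested. Signal over background limits Gbp2b, which was not well above background on any C57BL6 array.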
